A study of Mus musculus with 6 samples.

Results

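The mitochondrial respiratory chain was followed through the nuclear genes for its subunits in sorted, endothelium-enriched cells of mouse embryos. Genes were taken by symbol: the Nduf a, b, s and v series of complex I, Sdha to Sdhd of complex II, the Uqcr genes of complex III, the Cox4 to Cox8 series of complex IV, and the Atp5 genes of ATP synthase, also called complex V. The rule used no measured value to choose the genes. It found 79 genes among the 18193 measured, with 158 probe sets among the 34945 that carry a single symbol, and each gene was read from its brightest probe set. Complex I had 31 genes, complex II 4, complex III 8, complex IV 19 and complex V 17. Ndufa4 and Ndufa4l2 were counted with complex IV, where the Ndufa4 protein is found. Of the genes that fit the symbols, Cox7b, Ndufa11, Ndufb4b, Ndufb4c and Ndufs6 were among those not analysed here.

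The cells came from the heart tube, from the caudal-half tissue of the embryo (called caudal cells here) and from the yolk sac at embryonic day 9.5, all freshly isolated from mice of mixed background, with samples named Wt and no treatment. All 3 groups were sorted the same way, for surface CD31, an endothelial protein, and against CD41 and CD45, which mark early blood progenitors, megakaryocytes and leukocytes. Each tissue has 2 arrays, described as independent biological duplicates. The labels do not say how many embryos went into a sample, so p-values measure the spread between these arrays.

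The respiratory chain passes electrons from NADH, at complex I, and from succinate, at complex II, through complexes III and IV to oxygen, and complexes I, III and IV pump protons across the inner mitochondrial membrane. ATP synthase uses the returning protons to make ATP. Nuclear genes encode most subunits, a few are encoded in mitochondrial DNA, and several complex IV subunits exist in a form found in most tissues and another found mainly in adult heart and skeletal muscle. Mature heart muscle is rich in mitochondria, while endothelial cells are known for a large use of glycolysis.

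Levels are the natural log of the authors' deposited signal, read as a log2 value. Were those signals linear instead, all differences would be 1.44 times as large and no test would change. Because probe sets differ in how well they bind, the level of a gene was compared between tissues and not with that of another gene, and weak signals were described by the 27 probe sets for bacterial RNAs, which read 1.33 to 4.03. In sorted bulk RNA, fewer cells of a type and less RNA per cell cannot be told apart.

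The surface genes of the sort were read first. Pecam1, which encodes CD31, read 9.49 and 9.61 in heart tube cells, 10.08 and 9.83 in caudal cells, and 10.09 and 9.82 in yolk sac cells, and it was not called in any comparison. Ptprc, which encodes CD45, read 2.33 to 2.85 on all 6 arrays, inside the bacterial control range. Itga2b, which encodes CD41, was above that range on all arrays and lower than in yolk sac cells both in heart tube cells (difference -1.41 ± 0.20, log2 scale, SE; adjusted p = 0.00687, limma) and in caudal cells (-1.67 ± 0.20, adjusted p = 0.00522, limma). Markers of other cells also differed. For comparison, 5.51% of all measured genes were called in either direction between heart tube cells and caudal cells. The share was 11.8% between heart tube cells and yolk sac cells and 9.08% between caudal cells and yolk sac cells. Of 20 cardiomyocyte markers, 7 were higher and 0 lower in heart tube cells than in caudal cells, and 9 were higher and 0 lower in heart tube cells than in yolk sac cells. Their summed signal, on the log2 scale, was 12.34 to 12.38 in heart tube cells, 11.33 to 11.44 in caudal cells and 11.08 to 11.17 in yolk sac cells, and Nkx2-5, Ryr2 and Smpx lay within the bacterial range in all tissues. Of 14 visceral endoderm markers, 0 were higher and 11 lower in each of heart tube cells and caudal cells than in yolk sac cells. Their summed signal was 8.27 to 8.28 in heart tube cells, 8.73 to 9.02 in caudal cells and 14.50 to 14.54 in yolk sac cells. By tissue mean, 6 of them lay within the bacterial range in heart tube cells, 4 in caudal cells and 2 in yolk sac cells. Alb and Foxa2 were among those of caudal cells and yolk sac cells. Of 10 erythroid markers, 1 was higher and 5 lower in each of heart tube cells and caudal cells than in yolk sac cells, with a summed signal of 11.13 to 11.36 in heart tube cells, 11.72 to 11.96 in caudal cells and 13.63 to 13.73 in yolk sac cells. Endothelial markers themselves differed, with 9 of 15 lower and 0 higher in heart tube cells than in yolk sac cells, and so did 12 mesenchymal markers (4 higher, 5 lower) and 8 epithelial markers (0 higher, 6 lower) in the same comparison. Between heart tube cells and caudal cells, 1 endothelial marker was higher and 6 lower, 7 mesenchymal markers were higher and 0 lower, 0 epithelial markers were higher and 5 lower, 1 erythroid marker was higher and 4 lower, and 0 visceral endoderm markers were higher and 3 lower. As a sign of RNA quality, the Gapdh control probe set at the 3' end exceeded that at the 5' end by 1.88 to 1.98 in heart tube cells, 1.58 to 1.67 in caudal cells and 1.81 to 2.04 in yolk sac cells. The part of other cells and of RNA quality in the results below was not tested.

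The levels of the chain as a whole differed little between the arrays. The median gene of the chain read 10.28 and 10.37 in heart tube cells, 10.33 and 10.36 in caudal cells, and 10.43 and 10.44 in yolk sac cells. The median over all measured genes was 5.58 and 5.60 in heart tube cells, 5.57 on both caudal arrays, and 5.64 and 5.66 in yolk sac cells. Averaged over the 6 arrays, 10 of the 79 genes read at most 6, and of these Ndufb4, Cox4i2 and Cox7b2 averaged inside the bacterial control range. The yolk sac arrays had the highest median of the chain, by under 0.2 over any other array.

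**Figure D1:**
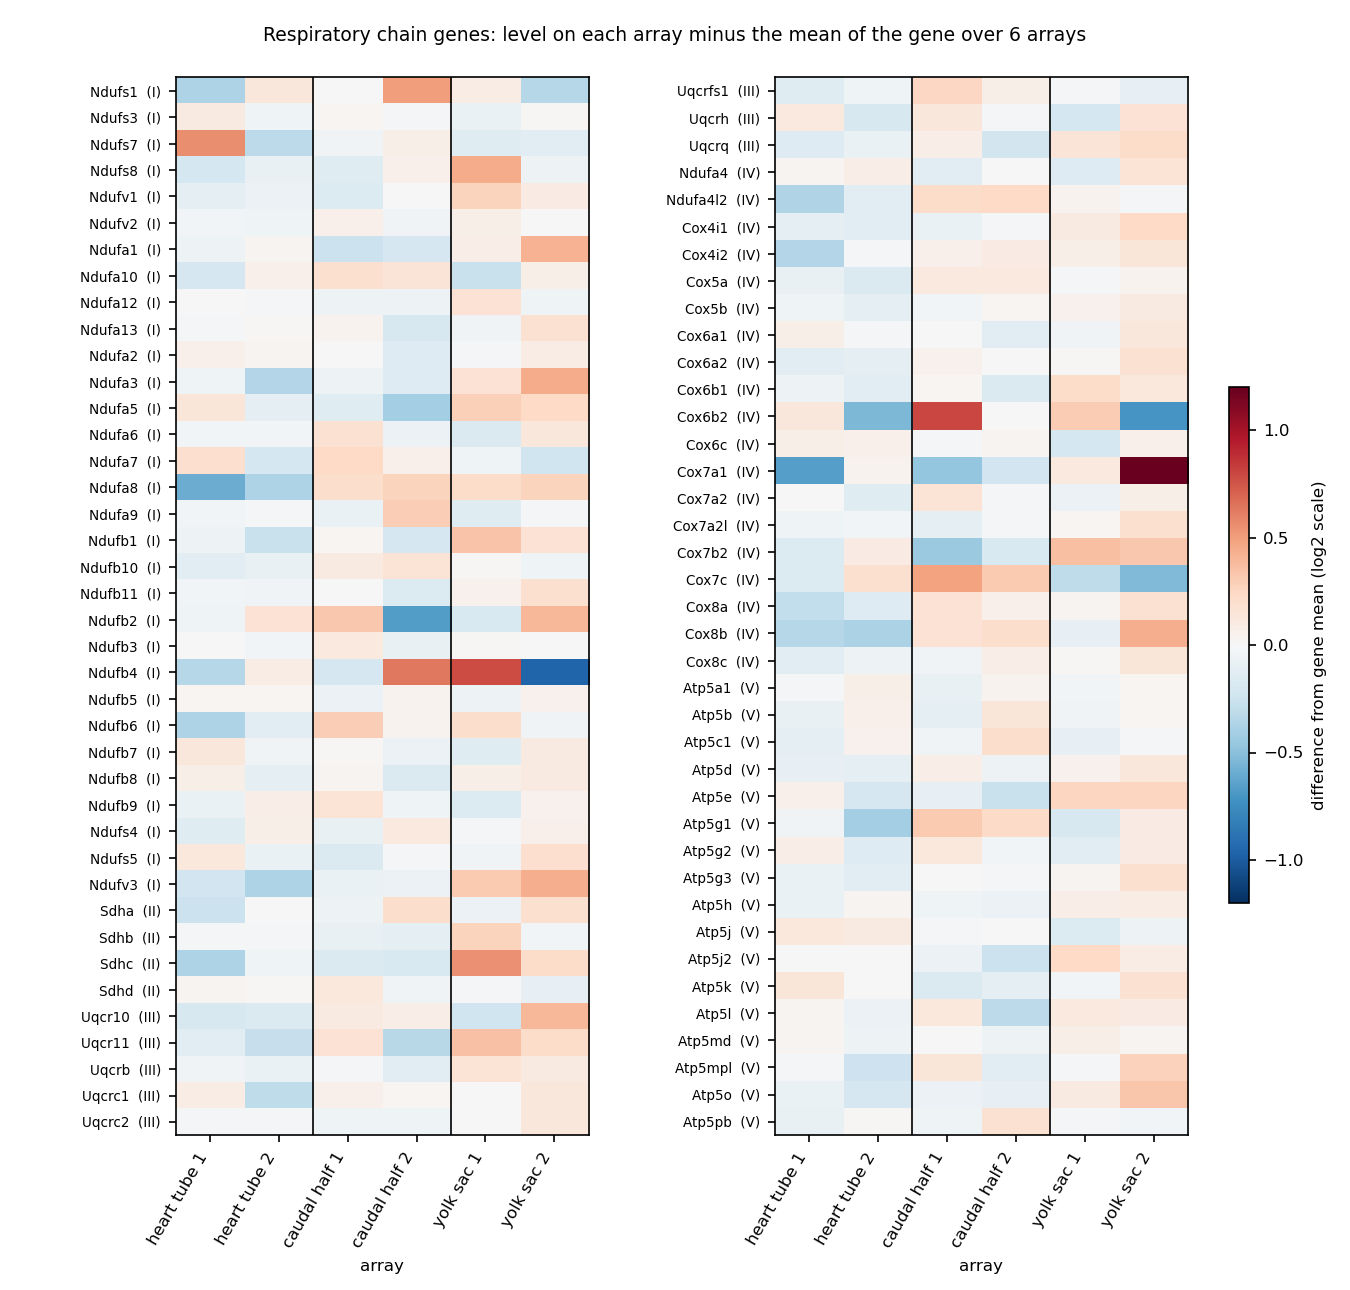
Level of each of the 79 respiratory chain genes (rows, with the complex in brackets) on each of the 6 arrays (columns, 2 a tissue), as the difference on the log2 scale from the mean of that gene over all arrays. Most cells are pale, within 0.5 of 0, and the stronger colours are mostly single arrays, such as the second yolk sac array of Cox7a1 and the first heart tube array of Ndufa8. Both heart tube arrays of Ndufa8 and both yolk sac arrays of Cox7c lie below the mean of their gene.

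Few of these genes passed the test in any comparison. Between heart tube cells and caudal cells, 0 of the 79 genes were higher and 0 lower at an adjusted p under 0.05 (limma over all 18193 genes, Benjamini-Hochberg), where 2.86% of all measured genes were higher and 2.65% lower, 5.51% in all. At an unadjusted p under 0.05 there were 4 of 79, or 5.06%, against 19.5% of all measured genes. Between heart tube cells and yolk sac cells, 0 were higher and 2 lower in heart tube cells, Ndufa8 and Ndufv3, where 5.14% of all genes were higher and 6.67% lower (11.8% in all), and 6 genes, or 7.59%, had an unadjusted p under 0.05, against 26.0% of all genes. Between caudal cells and yolk sac cells, 0 were higher and 0 lower, where 4.22% of all genes were higher and 4.86% lower (9.08% in all), and 8 genes, or 10.1%, had an unadjusted p under 0.05, against 23.8% of all genes.

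The intervals of these differences were narrow for most of the genes. The 95% interval of the difference lay between -1 and 1 for 73 of the 79 genes between heart tube cells and caudal cells (92.4%, against 69.0% of all genes). It did so for 71 genes between heart tube cells and yolk sac cells (89.9%, against 63.3% of all genes) and for 71 between caudal cells and yolk sac cells (89.9%, against 65.1%). The median size of the difference, whatever its sign, was 0.108, 0.147 and 0.142 in these 3 comparisons in the order given, against 0.250, 0.297 and 0.272 over all genes. The genes of the chain were also brighter, with 47 of the 79 averaging above 10, against 5.92% of all genes. The part of brightness in the narrow intervals and small differences was not tested. The smaller of the 2 called differences of the chain was -0.67, which is not a limit of detection. In simulated data for heart tube against caudal cells, the fit called 0 of 50 genes with a true difference of 0.5. It called 5 of 50 with a true difference of 1 and 36 of 50 with 2. These genes were drawn from all genes, and 17993 others had no true difference, unlike the real data. Differences of the median size were thus not detectable gene by gene with 2 arrays a tissue.

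The direction leaned slightly to yolk sac cells. The median difference over the 79 genes was -0.06 between heart tube cells and caudal cells, where all genes had -0.08. It was -0.12 between heart tube cells and yolk sac cells, where all genes had -0.06, and -0.06 between caudal cells and yolk sac cells, where all genes had 0.02. In heart tube cells, 61 of 79 genes (77.2%) were below yolk sac cells, against 56.0% of all genes, with no test of the direction. For caudal cells against yolk sac cells it was 48 genes (60.8%, against 48.1% of all genes), and for heart tube cells against caudal cells 49 genes (62.0%, against 59.5%). The median between caudal cells and yolk sac cells rests on single yolk sac arrays, being -0.11 without the first yolk sac array and 0.00 without the second.

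**Figure D2:**
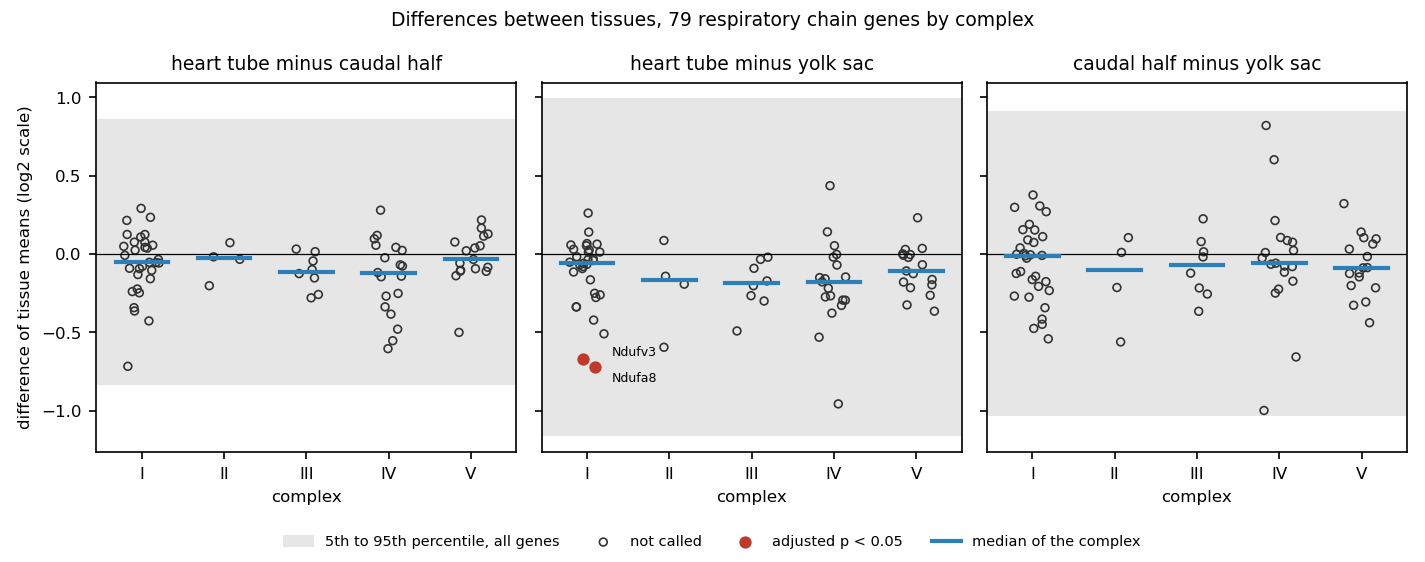
Difference between tissue means on the log2 scale for each respiratory chain gene, by complex, in the 3 comparisons; each circle is a gene, blue bars are medians of the complex, and the grey band spans the 5th to 95th percentile of all 18193 genes. Medians of the complexes lie between -0.19 and -0.01, and the 2 filled points, Ndufa8 and Ndufv3 between heart tube and yolk sac, are the genes called by limma.

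Complex I, the NADH dehydrogenase, held both called genes. Its 31 genes had a median difference of -0.05 between heart tube cells and caudal cells, -0.06 between heart tube cells and yolk sac cells and -0.01 between caudal cells and yolk sac cells. The 6 core subunits, which carry the electron path, had medians of -0.03, -0.03 and 0.01 in the same comparisons, and 0 of them were called in any. The 25 supernumerary subunits, which surround the core, had medians of -0.05, -0.06 and -0.01.

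Ndufa8, a supernumerary subunit of the intermembrane space, read 9.07 and 9.29 in heart tube cells, 9.87 and 9.92 in caudal cells, and 9.88 and 9.92 in yolk sac cells. Both heart tube arrays were below all 4 others, and the caudal and yolk sac arrays overlapped. Heart tube cells were lower than yolk sac cells (difference -0.72 ± 0.17 on the log2 scale, SE; adjusted p = 0.0407, limma). The difference from caudal cells was also -0.72 ± 0.17 and was not called (adjusted p = 0.0661, limma). Both comparisons share the heart tube arrays, where 7 cardiomyocyte and 7 mesenchymal markers were higher and 6 endothelial and 5 epithelial markers lower than in caudal cells, with the counts against yolk sac cells given above, and their part in the difference was not tested. The promoter of Ndufa8 carries the motif of the factor NRF1 (Nrf1), an activator of many respiratory chain genes, as described below, while that of Ndufv3, the other called gene, has no match to these letters.

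Ndufv3, a supernumerary subunit of the NADH-binding module, read 10.38 and 10.24 in heart tube cells, 10.53 and 10.54 in caudal cells, and 10.92 and 11.04 in yolk sac cells. The 3 tissues did not overlap, with yolk sac cells highest. Heart tube cells were lower than yolk sac cells (difference -0.67 ± 0.16, log2 scale, SE; adjusted p = 0.0460, limma). The difference was -0.45 between caudal and yolk sac cells (adjusted p = 0.156, limma) and -0.22 between heart tube and caudal cells (adjusted p = 0.514, limma), neither of which was called. The calls of Ndufa8 and Ndufv3 both ended in all 6 fits that left out 1 array, at adjusted p of 0.0700 to 0.202 for Ndufa8 and 0.0770 to 0.205 for Ndufv3 (limma). Many visceral endoderm, erythroid, endothelial and epithelial markers were also higher in yolk sac cells than in heart tube cells, and mesenchymal markers differed in both directions, with the counts given above. Their part in the difference of Ndufv3 was not tested.

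The other extremes of complex I were not called. Ndufa5, a supernumerary subunit of the peripheral arm, read 11.90 and 11.63 in heart tube cells, 11.61 and 11.34 in caudal cells, and 12.04 and 11.99 in yolk sac cells. It had the highest difference of the complex between heart tube cells and caudal cells (0.29 ± 0.19, SE, log2 scale) and the lowest between caudal cells and yolk sac cells (-0.54 ± 0.19). Ndufs7, a core subunit that holds an iron-sulphur cluster, was highest between heart tube cells and yolk sac cells at 0.26 ± 0.29, with heart tube arrays of 10.74 and 9.87 on either side of the 10.04 and 10.05 of yolk sac cells. Ndufs1, the largest core subunit, was highest between caudal cells and yolk sac cells at 0.38 ± 0.28, from 8.21 and 8.71 in caudal cells and 8.30 and 7.87 in yolk sac cells.

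The sequences before the start sites of these genes were read from RefSeq promoters of build GRCm38.p6, which span 250 bases before to 50 bases after the start and were found for 64 of the 79 genes. The NRF1 motif GCGCANGCGC, with N for any base and both strands searched, was present in 15 of the 64 genes (23.4%), against 8.61% of the 14452 measured genes with a promoter. The motif itself contains CpG, and the promoters of the chain held a median of 19 CpG in 300 bases, against 18 over all measured genes. The 10th percentile was 12 for the chain and 3 for all measured genes, so CpG-poor promoters were rarer in the chain. The part of CpG content in the share with the motif was not tested. By complex, the motif was in 5 of 28 genes of complex I, 2 of 3 of complex II, 1 of 5 of complex III, 1 of 13 of complex IV and 6 of 15 of complex V. A match describes the letters and not binding. Nrf1 itself read 8.97 and 8.94 in heart tube cells, 9.18 and 9.10 in caudal cells, and 8.54 and 8.81 in yolk sac cells and was not called (adjusted p = 0.631, 0.370 and 0.170 in the 3 comparisons, limma). The following stretches, read 5' to 3' along the gene with the motif in capitals, show a match before a gene that was lower in heart tube cells (Ndufa8, at chr2:36049339-36049388, minus strand) and before 3 genes that were called in no comparison (Sdhd at chr9:50603899-50603948, Cox6a1 at chr5:115349091-115349140 and Atp5g2 at chr15:102671060-102671109, all minus strand). The match of Ndufa8 reads as the reverse complement of the motif, that of Sdhd as the motif is written, and those of Cox6a1 and Atp5g2 as both.
Ndufa8: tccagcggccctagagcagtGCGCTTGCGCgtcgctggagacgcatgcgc
Sdhd: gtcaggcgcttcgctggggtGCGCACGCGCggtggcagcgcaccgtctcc
Cox6a1: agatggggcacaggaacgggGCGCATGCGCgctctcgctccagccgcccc
Atp5g2: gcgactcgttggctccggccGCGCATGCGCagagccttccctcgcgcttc

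Complex II, succinate dehydrogenase, links the citric acid cycle to the chain, and all 4 of its genes were measured. Sdha, the flavoprotein that oxidises succinate, read 10.59 and 10.84 in heart tube cells, 10.78 and 11.05 in caudal cells, and 10.78 and 11.03 in yolk sac cells. Sdhb, the iron-sulphur subunit, read 9.45 on both heart tube arrays, 9.39 and 9.37 in caudal cells, and 9.74 and 9.44 in yolk sac cells. The arrays of the 3 tissues lay within 0.5 of each other for both genes.

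Sdhc and Sdhd encode the membrane anchors. Sdhc read 10.14 and 10.45 in heart tube cells, 10.33 on both caudal arrays, and 11.05 and 10.73 in yolk sac cells, so that both yolk sac arrays were above the other 4. Its difference was -0.60 ± 0.20 between heart tube cells and yolk sac cells (log2 scale, SE; adjusted p = 0.114, limma) and -0.56 ± 0.20 between caudal cells and yolk sac cells (adjusted p = 0.147, limma), not called in either. Sdhd read 10.07 and 10.05 in heart tube cells, 10.16 and 9.99 in caudal cells, and 10.01 and 9.93 in yolk sac cells, with differences of -0.02, 0.09 and 0.10. The probe sets of Sdhc and Sdhd can bind related transcripts, by the x_at ending of their names. The other probe set of Sdhc, without that ending, gave -0.50 ± 0.18 between heart tube cells and yolk sac cells (adjusted p = 0.152, limma over all probe sets). Its yolk sac arrays, at 9.55 and 9.37, were likewise above the other 4.

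Complex III, the cytochrome c reductase, had 0 of 8 genes called in any comparison. Its median difference was -0.11 between heart tube cells and caudal cells, -0.19 between heart tube cells and yolk sac cells and -0.07 between caudal cells and yolk sac cells. All 8 were below yolk sac cells in heart tube cells, from -0.02 for Uqcrh, the hinge subunit, to -0.49 for Uqcr11, a small membrane subunit, with no test of that count. Uqcr11 read 8.98 and 8.83 in heart tube cells, 9.28 and 8.78 in caudal cells, and 9.46 and 9.33 in yolk sac cells (heart tube minus yolk sac, adjusted p = 0.213, limma). Uqcrfs1, the Rieske iron-sulphur protein, had the highest difference of the complex between caudal cells and yolk sac cells, at 0.22 ± 0.17, and Uqcrc2, a core protein of the matrix side, the highest between heart tube cells and caudal cells, at 0.03 ± 0.16. Uqcr10, another small subunit, read 9.24 and 9.27 in heart tube cells, 9.55 and 9.52 in caudal cells, and 9.20 and 9.84 in yolk sac cells, where the 2 arrays disagreed by more than the tissues did.

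Complex IV, cytochrome c oxidase, reduces oxygen and holds most of the tissue isoforms. Among its 19 genes, 0 were called in any comparison, and the median difference was -0.12 between heart tube cells and caudal cells, -0.18 between heart tube cells and yolk sac cells and -0.06 between caudal cells and yolk sac cells.

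The Cox4 subunit is the largest nuclear subunit of the complex. Cox4i1, its general form, read 11.28 and 11.25 in heart tube cells, 11.31 and 11.37 in caudal cells, and 11.50 and 11.63 in yolk sac cells. The difference between heart tube cells and yolk sac cells was -0.29 ± 0.16 (SE) and was not called (adjusted p = 0.301, limma). Cox4i2, the form of lung and of low oxygen, read 3.48 and 3.80 in heart tube cells, 3.89 and 3.93 in caudal cells, and 3.90 and 3.97 in yolk sac cells, all inside the bacterial control range.

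None of the 3 measured isoforms of adult heart and skeletal muscle, Cox6a2, Cox7a1 and Cox8b, was called between heart tube cells and another tissue. Cox6a2 read 5.34 and 5.37 in heart tube cells, 5.52 and 5.47 in caudal cells, and 5.48 and 5.66 in yolk sac cells, a difference of -0.14 ± 0.16 between heart tube cells and caudal cells (SE, 95% interval -0.53 to 0.25). Its general partner Cox6a1 read 11.67 to 11.94 on all 6 arrays.

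Cox7a1 read 3.45 and 4.15 in heart tube cells, 3.64 and 3.87 in caudal cells, and 4.22 and 5.29 in yolk sac cells. The means of heart tube cells and caudal cells lay inside the bacterial control range, with the second heart tube array above it, while both yolk sac arrays were above it and 1.07 apart. The difference between heart tube cells and yolk sac cells was -0.96 ± 0.39 (SE, log2 scale), and neither tissue was called against yolk sac cells (adjusted p = 0.186 in each, limma). Its general partner Cox7a2 read 11.93 to 12.24 on all arrays, and Cox7a2l, a relative that joins complexes III and IV, read 11.49 to 11.79.

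Cox8b read 4.0 and 3.96 in heart tube cells, inside the bacterial control range, 4.51 and 4.56 in caudal cells, and 4.25 and 4.78 in yolk sac cells. Both heart tube arrays were the lowest of the 6. Neither comparison was called (adjusted p = 0.227 against caudal cells and 0.180 against yolk sac cells, limma). Its general partner Cox8a read 8.58 and 8.72 in heart tube cells, 9.04 and 8.93 in caudal cells, and 8.90 and 9.05 in yolk sac cells, where the heart tube arrays were again the lowest (difference from caudal cells -0.34 ± 0.17, adjusted p = 0.335, limma). Cox8c, which is described mainly from testis, read 4.83 to 5.10 on all arrays.

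The 120 bases before the start sites of the muscle isoforms Cox7a1 and Cox8b and of the general isoforms Cox7a2 and Cox8a are shown 5' to 3' with each CpG in capitals, because these isoforms were described above and the pairs differ there. In the 300 bases of the promoter, Cox7a1 held 7 CpG and Cox7a2 20, Cox8b 2 and Cox8a 19. Isoforms of restricted tissues did not always hold fewer: Cox6b2 held 10 and its general form Cox6b1 17, but Cox7b2 held 10 and its general form Cox7b 5. The median over all measured genes was 18, with a 10th percentile of 3. The stretches lie at chr7:30184051-30184170 (Cox7a1, plus strand), chr9:79759854-79759973 (Cox7a2, minus strand), chr7:140900447-140900566 (Cox8b, minus strand) and chr19:7217617-7217736 (Cox8a, minus strand) in GRCm38.p6. DNA methylation was not measured in this study.
Cox7a1: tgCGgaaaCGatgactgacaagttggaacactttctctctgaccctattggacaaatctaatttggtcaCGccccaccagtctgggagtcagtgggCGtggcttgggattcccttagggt
Cox7a2: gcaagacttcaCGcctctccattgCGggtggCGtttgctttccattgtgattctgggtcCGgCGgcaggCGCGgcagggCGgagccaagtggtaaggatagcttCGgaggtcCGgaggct
Cox8b: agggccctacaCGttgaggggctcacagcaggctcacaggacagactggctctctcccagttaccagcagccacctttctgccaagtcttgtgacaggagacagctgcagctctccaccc
Cox8a: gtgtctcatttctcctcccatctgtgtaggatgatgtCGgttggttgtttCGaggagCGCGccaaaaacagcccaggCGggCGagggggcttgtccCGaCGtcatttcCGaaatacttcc

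**Figure D3:**
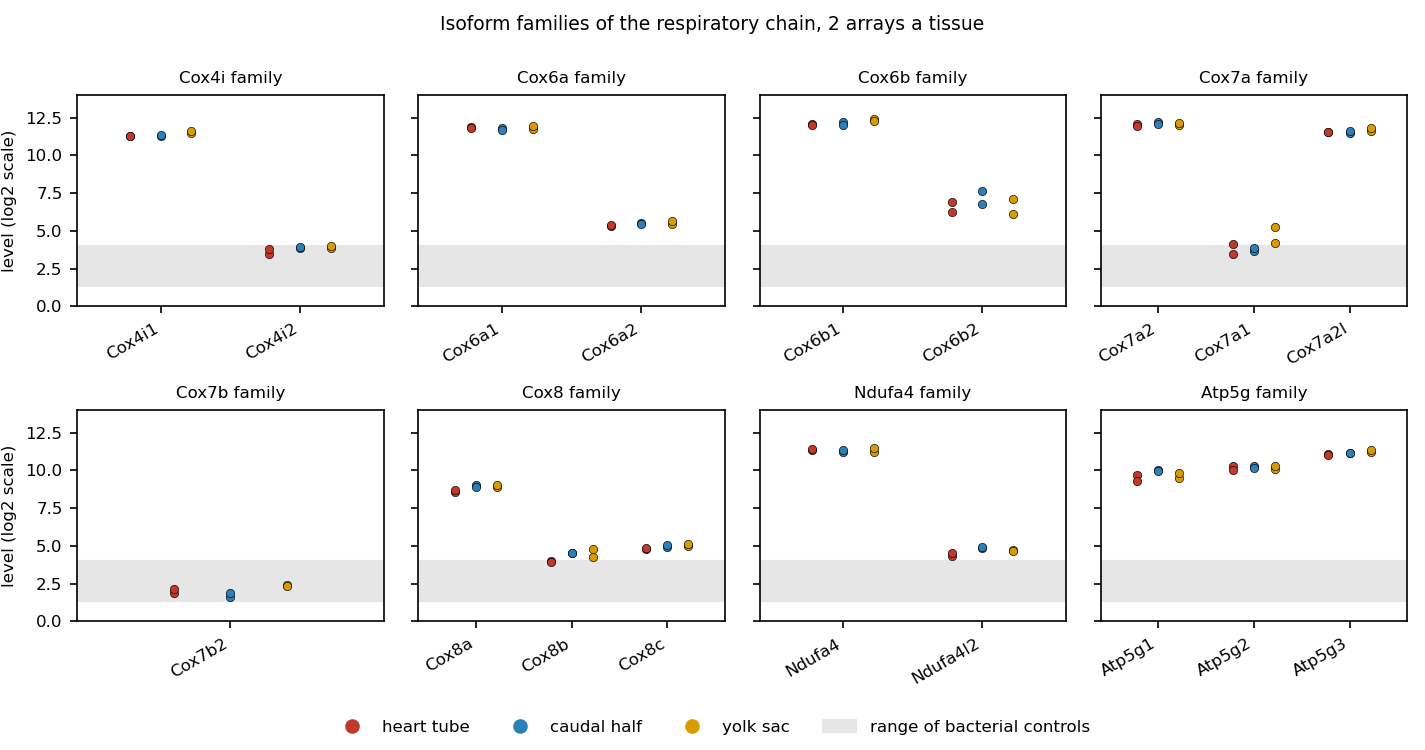
Level on the log2 scale of the isoforms of 8 subunit families on the 6 arrays, heart tube in red, caudal-half cells in blue and yolk sac in orange, with the range of the bacterial controls (1.33 to 4.03) in grey. The isoforms of restricted tissues Cox4i2, Cox6a2, Cox7a1, Cox7b2, Cox8b and Cox8c read under 6 in all 3 tissues, and their heart tube points are not above those of both other tissues. Cox6b2, the testis form, is an exception to that level and reads 6.10 to 7.61.

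The remaining isoforms of complex IV gave no call. Cox6b1, a general subunit of the intermembrane face, read 11.99 to 12.38. Cox6b2, its testis form, read 6.95 and 6.27 in heart tube cells, 7.61 and 6.81 in caudal cells, and 7.12 and 6.10 in yolk sac cells, with the first array above the second by 0.68 to 1.01 in each tissue. Cox7b2, another form described from testis, read 1.60 to 2.41, inside the bacterial control range on all arrays. Ndufa4 read 11.19 to 11.51, and Ndufa4l2, its form known to be induced by low oxygen, read 4.31 and 4.53 in heart tube cells, 4.89 and 4.91 in caudal cells, and 4.71 and 4.66 in yolk sac cells. The 3 tissues did not overlap for Ndufa4l2, with heart tube cells lowest, and the difference from caudal cells was -0.48 ± 0.17 (SE; adjusted p = 0.183, limma).

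Cox7c had the highest difference of the 79 genes in both comparisons with yolk sac cells. It read 5.31 and 5.67 in heart tube cells, 5.96 and 5.79 in caudal cells, and 5.17 and 4.94 in yolk sac cells, and the 3 tissues did not overlap. The difference between caudal and yolk sac cells was 0.82 ± 0.20 (SE, log2 scale; 95% interval 0.34 to 1.30), just outside the threshold at an adjusted p of 0.0557 (limma). Its probe set ends in s_at, by which name it can bind more than 1 transcript. The other probe set of Cox7c gave 0.56 ± 0.17 between caudal cells and yolk sac cells and -0.03 ± 0.17 between heart tube cells and yolk sac cells, where the s_at probe set gave 0.44, and neither was called (adjusted p = 0.119 and 0.945, limma over all probe sets).

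Complex V, ATP synthase, had 0 of 17 genes called in any comparison. Its median difference was -0.03 between heart tube cells and caudal cells, -0.11 between heart tube cells and yolk sac cells and -0.09 between caudal cells and yolk sac cells, and all 17 intervals lay between -1 and 1 in each comparison. The 5 genes of the F1 part, which makes ATP and includes the central stalk, had medians of -0.03, 0.00 and -0.02. The 12 of the membrane part and peripheral stalk had medians of -0.02, -0.12 and -0.12. Atp5e, the epsilon subunit of F1, read 10.79 and 10.52 in heart tube cells, 10.63 and 10.46 in caudal cells, and 10.98 on both yolk sac arrays (caudal minus yolk sac -0.44 ± 0.18, SE; adjusted p = 0.198, limma).

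The c ring of ATP synthase, through which the protons pass, is made of 1 protein encoded by 3 genes. Atp5g1 read 9.69 and 9.32 in heart tube cells, 10.04 and 9.96 in caudal cells, and 9.53 and 9.83 in yolk sac cells. It had the lowest difference of the complex between heart tube cells and caudal cells, -0.50 ± 0.20 (SE; adjusted p = 0.245, limma), and the highest between caudal cells and yolk sac cells, 0.32 ± 0.20. Atp5g2 read 10.05 to 10.33 and Atp5g3 11.04 to 11.36 over the 6 arrays. Of the other extremes, Atp5k, a membrane subunit, had a difference of 0.22 ± 0.17 between heart tube and caudal cells, and Atp5j, the coupling factor of the peripheral stalk, one of 0.23 ± 0.16 between heart tube and yolk sac cells. Atp5o, the protein that joins F1 and the peripheral stalk, had a difference of -0.37 ± 0.17 between heart tube and yolk sac cells (adjusted p = 0.237, limma).

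The single gene of mitochondrial DNA on the arrays, ND5, a proton-pumping subunit of complex I, read 13.08 on both heart tube arrays, 12.89 and 12.88 in caudal cells, and averaged 13.04 ± 0.06 in yolk sac cells (SD, n = 2). Caudal arrays were the lowest, and no comparison was called. The mobile carrier cytochrome c, Cycs, read 11.83 and 11.87 in heart tube cells, 11.78 and 11.92 in caudal cells, and 11.46 and 11.48 in yolk sac cells. Both yolk sac arrays were below the other 4, and the difference of either tissue from them was 0.38 ± 0.16, not called (adjusted p = 0.200 against heart tube cells and 0.212 against caudal cells, limma). Cyc1, the cytochrome c1 of complex III, read 9.23 to 9.46. Slc25a4, the main ADP/ATP carrier of heart and muscle, read 11.38 to 11.56, and Ckmt2, the mitochondrial creatine kinase of sarcomeric muscle, 2.58 to 3.37, within the bacterial range on all arrays.

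Regulators of mitochondrial gene expression had calls in all 3 comparisons. Of 18 such genes, 0 were higher and 3 lower in heart tube cells than in caudal cells, where 5.51% of all genes were called. Against yolk sac cells, 3 were higher and 2 lower in heart tube cells, where 11.8% of all genes were called. In caudal cells, 4 were higher and 0 lower than in yolk sac cells, where 9.08% of all genes were called. The difference in calls between this list and the genes of the chain was not tested.

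Ppargc1b encodes PGC-1beta, a coactivator of mitochondrial genes. It read 3.18 and 3.50 in heart tube cells, inside the bacterial control range, 5.51 and 5.57 in caudal cells, and 5.13 and 5.37 in yolk sac cells. Both heart tube arrays were well below the other 4. Heart tube cells were lower than caudal cells (adjusted p = 0.00195, limma) and than yolk sac cells (adjusted p = 0.00186, limma). With heart tube cells taken at the upper end of the bacterial range, caudal cells were higher by at least 1.52 and yolk sac cells by at least 1.22 on the log2 scale. The calls of Ppargc1b were the only 2 of the 27 in the pathway lists that passed in all 6 fits without 1 array. Ppargc1a, which encodes the related PGC-1alpha, read 3.93 and 4.54 in heart tube cells, 4.15 and 3.88 in caudal cells, and 3.96 and 3.92 in yolk sac cells, around the upper end of the bacterial range, and was not called.

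Polg, the catalytic subunit of the mitochondrial DNA polymerase, read 7.61 and 7.71 in heart tube cells, 8.48 and 8.98 in caudal cells, and 8.91 and 8.83 in yolk sac cells, so heart tube cells were lower than caudal cells (-1.07 ± 0.21, SE; adjusted p = 0.0386, limma) and than yolk sac cells (-1.21 ± 0.21, adjusted p = 0.0145, limma). Both calls ended when its probe sets were averaged. The call against caudal cells ended in all 6 fits without 1 array (adjusted p = 0.0501 to 0.192), and that against yolk sac cells in the 4 without a heart tube or yolk sac array (up to 0.0905, limma). Its accessory subunit Polg2 went the other way against yolk sac cells, at 7.97 and 7.71 in heart tube cells and 6.92 and 7.13 in yolk sac cells (0.82 ± 0.18, adjusted p = 0.0364, limma). The call of Polg2 ended in every fit without 1 array.

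Tfam, which packs and transcribes mitochondrial DNA, read 7.88 and 7.93 in heart tube cells, 7.84 and 8.14 in caudal cells, and 7.15 and 7.16 in yolk sac cells. Both other tissues were higher than yolk sac cells, heart tube cells by 0.75 ± 0.18 (SE; adjusted p = 0.0411, limma) and caudal cells by 0.84 ± 0.18 (adjusted p = 0.0349, limma). Pprc1, another coactivator of the PGC-1 family, was likewise higher than yolk sac cells in heart tube cells (0.87 ± 0.20, adjusted p = 0.0377, limma) and in caudal cells (1.07 ± 0.20, adjusted p = 0.0241, limma). Twnk, the helicase of mitochondrial DNA, was higher in caudal cells than in yolk sac cells by 1.17 ± 0.26 (adjusted p = 0.0423, limma). Both calls of Tfam ended in every fit without 1 array, and those of Pprc1 and Twnk ended in most of these fits.

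The oestrogen-related receptors bind promoters of respiratory chain genes. Esrrb, known from pluripotent and germ cells, read 2.64 and 2.48 in heart tube cells, 5.36 and 5.0 in caudal cells, and 2.48 and 3.40 in yolk sac cells. It was above the bacterial range in caudal cells and within it in the other tissues, lower in heart tube cells than in caudal cells (adjusted p = 0.00707, limma) and higher in caudal cells than in yolk sac cells (adjusted p = 0.0101, limma), in each case with caudal cells higher by at least 1.15 on the log2 scale. The call against heart tube cells ended without the second heart tube array or the first caudal array (adjusted p up to 0.0569), and that against yolk sac cells without the first caudal array (0.0659, limma). Esrrg, known from heart muscle, read 6.34 and 4.86 in heart tube cells, 3.64 and 3.92 in caudal cells, and 3.88 and 4.16 in yolk sac cells. Its heart tube arrays were the highest but 1.48 apart, and neither the difference from caudal cells, of at least 1.57 since both caudal arrays lay in the bacterial range, nor that of 1.58 ± 0.45 from yolk sac cells was called (adjusted p = 0.0791 against caudal cells and 0.0756 against yolk sac cells, limma). Cardiomyocyte markers were higher in heart tube cells too, and their part was not tested.

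**Figure D4:**
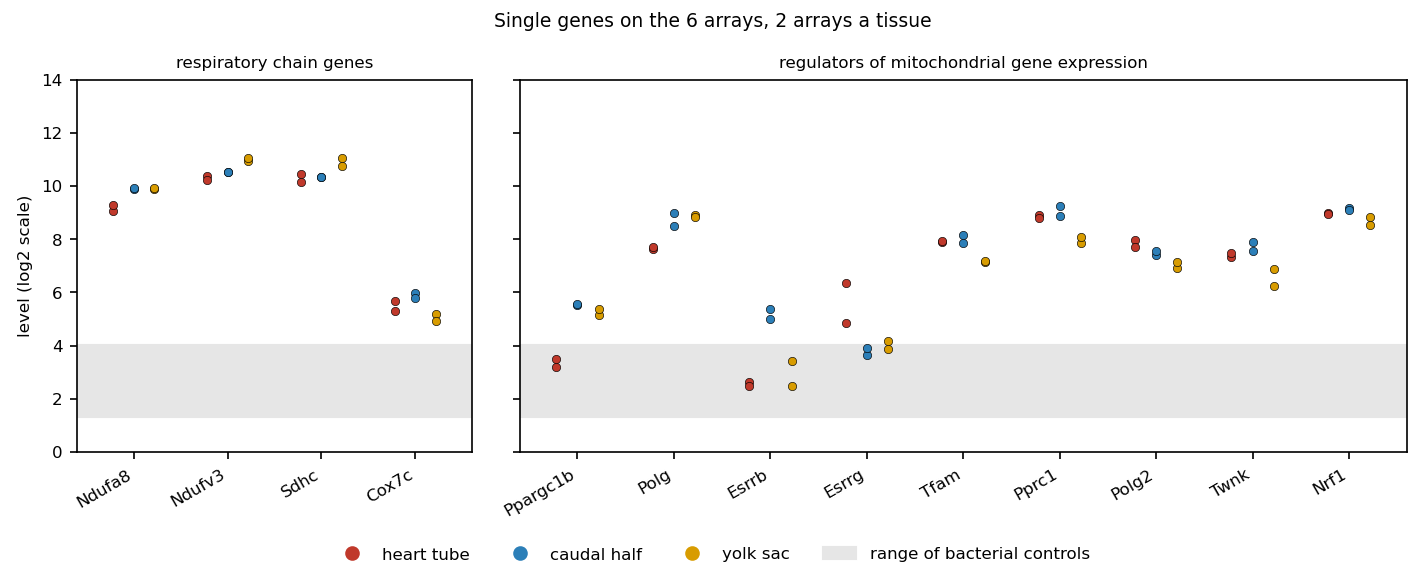
Level on the log2 scale on each of the 6 arrays for 4 respiratory chain genes (left panel) and 9 regulators of mitochondrial gene expression (right panel), by tissue, with the range of the bacterial controls in grey. The heart tube points of Ndufa8, Ppargc1b and Polg lie below all others, and the yolk sac points of Tfam and Pprc1 lie below all others.

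Other mitochondrial lists gave few calls. Among 17 genes of pyruvate dehydrogenase and the citric acid cycle, among 11 carriers, uncouplers and mitochondrial creatine kinases, and among 7 other structural genes with cytochrome c, 0 were called in any comparison. Unadjusted p under 0.05 was reached by 2, 2 and 2 genes of the cycle, by 0, 1 and 2 of the carriers and by 1, 0 and 0 of the other structural genes, in the order heart tube against caudal, heart tube against yolk sac and caudal against yolk sac. Of 76 mitochondrial ribosomal proteins, 0 were called between heart tube cells and caudal cells, 2 were higher and 2 lower in heart tube cells than in yolk sac cells, and 3 were higher and 0 lower in caudal cells than in yolk sac cells. These counts lay below the shares of all genes called, which were 5.51%, 11.8% and 9.08% in the 3 comparisons. In heart tube cells, 62 of the 76 genes (81.6%, against 59.5% of all genes) were below caudal cells and 33 (43.4%, against 56.0%) below yolk sac cells. In caudal cells, 19 (25.0%, against 48.1%) were below yolk sac cells. The median differences were -0.17, 0.08 and 0.20, against -0.08, -0.06 and 0.02 over all genes, and the direction was not tested. Mrpl19 and Mrps35 were higher than yolk sac cells in heart tube cells (by 0.77 ± 0.16 and 0.80 ± 0.17) and in caudal cells (by 0.93 ± 0.16 and 0.88 ± 0.17), and Mrpl40 in caudal cells (by 0.89 ± 0.20). Mrpl58 and Mrpl23 were lower in heart tube cells than in yolk sac cells, at -0.87 ± 0.16 and -0.72 ± 0.17 (SE, log2 scale; adjusted p of these 7 calls 0.0191 to 0.0450, limma). The calls of Mrpl19 and Mrpl58 ended when their probe sets were averaged.

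Among 46 factors that assemble the complexes, 0 were higher and 1 lower in heart tube cells than in caudal cells, 1 was higher and 1 lower in heart tube cells than in yolk sac cells, and 2 were higher and 0 lower in caudal cells than in yolk sac cells. All 3 counts were below the 5.51%, 11.8% and 9.08% of all genes called. Ndufaf6, a complex I assembly factor, read 5.83 and 6.17 in heart tube cells, 6.87 and 6.84 in caudal cells, and 6.83 and 6.76 in yolk sac cells. Its heart tube arrays were the lowest, with -0.85 ± 0.18 against caudal cells (SE; adjusted p = 0.0490, limma) and -0.79 ± 0.18 against yolk sac cells (adjusted p = 0.0378, limma). Nubpl, which delivers iron-sulphur clusters to complex I, read 8.56 and 8.58 in heart tube cells, 8.73 and 9.04 in caudal cells, and 7.69 and 7.72 in yolk sac cells, and was higher than yolk sac cells in both other tissues (by 0.87 ± 0.18, adjusted p = 0.0258, and by 1.18 ± 0.18, adjusted p = 0.0116, limma). Ndufaf4, another complex I factor, was higher in caudal cells than in yolk sac cells by 0.76 ± 0.18 (adjusted p = 0.0499, limma).

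Of 18 genes of mitochondrial fatty acid oxidation, which feeds electrons to the chain, 0 were called between heart tube cells and caudal cells, 0 were higher and 1 lower in heart tube cells than in yolk sac cells, and 0 were higher and 2 lower in caudal cells than in yolk sac cells. With 11.8% and 9.08% of all genes called in the comparisons with yolk sac cells, these counts were below or near the background. Unadjusted p under 0.05 was reached by 16.7%, 22.2% and 44.4% of the list in the 3 comparisons, against 19.5%, 26.0% and 23.8% of all genes. Between caudal cells and yolk sac cells, 15 of the 18 genes (83.3%, against 48.1% of all genes) were lower in caudal cells. The median difference there was -0.37, against 0.02 over all genes, and the direction was not tested. Acadm, the medium-chain dehydrogenase, read 6.80 and 7.10 in heart tube cells and 7.92 and 8.34 in yolk sac cells (-1.18 ± 0.21, SE; adjusted p = 0.0164, limma). Cpt1a, which controls fatty acid entry, read 3.83 and 4.51 in caudal cells and 6.65 and 6.67 in yolk sac cells (-2.49 ± 0.35, adjusted p = 0.00918, limma). Acaa2, the last enzyme of the cycle, was lower in caudal cells than in yolk sac cells (-1.0 ± 0.16, adjusted p = 0.0151, limma). Visceral endoderm, which takes up and handles lipid, has markers that were higher in yolk sac cells in the same comparisons. Markers of other cells differed there too. In caudal cells against yolk sac cells, 2 of 12 mesenchymal markers were higher and 6 lower, and 1 of 10 erythroid markers was higher and 5 lower. Of 15 endothelial markers 1 was higher and 3 lower, and of 8 epithelial markers 0 were higher and 2 lower. The part of all these cells was not tested.

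**Figure D5:**
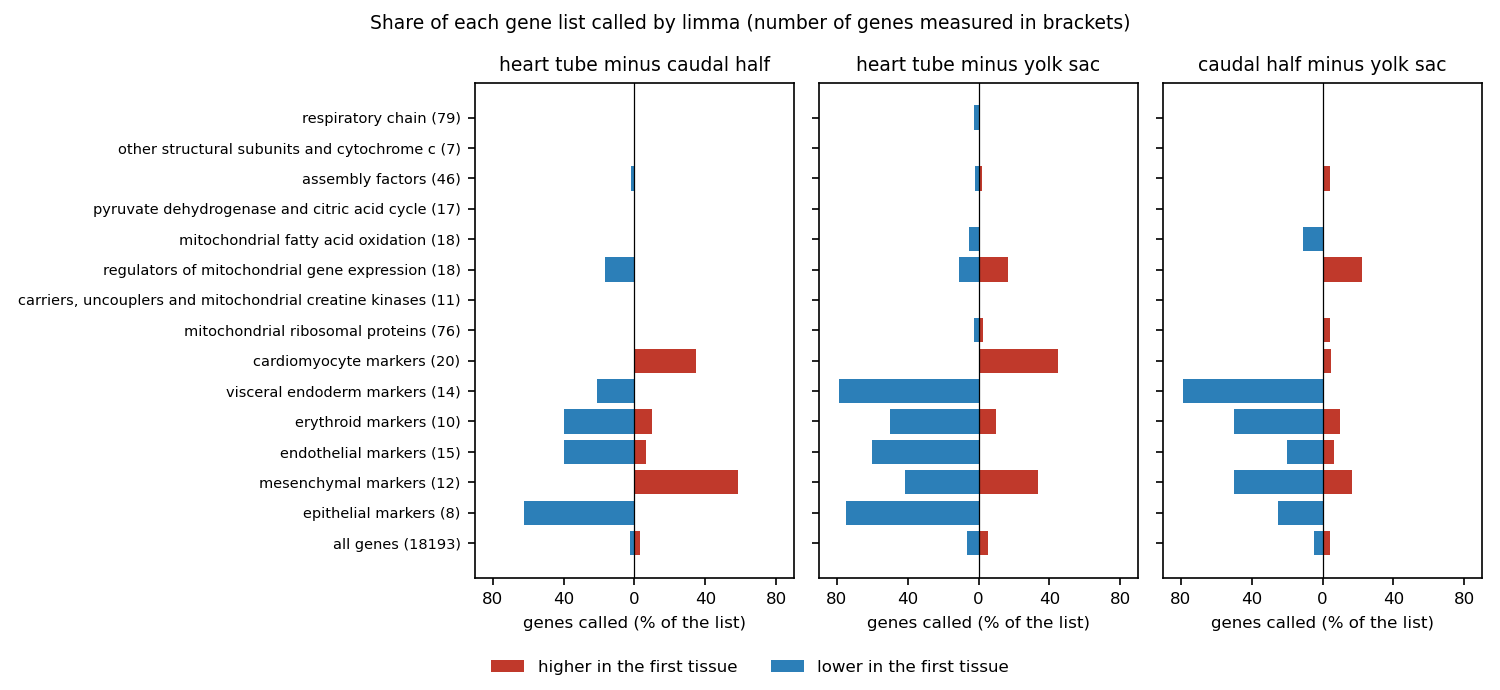
Percent of the genes of each list called higher (red, right) or lower (blue, left) in the tissue named first, in the 3 comparisons, with the number of genes measured in brackets and all genes in the bottom row. The respiratory chain shows only the 2 genes lower in heart tube cells than in yolk sac cells, while cardiomyocyte, visceral endoderm, erythroid, endothelial, mesenchymal and epithelial marker lists carry longer bars than all genes, except cardiomyocyte markers between caudal cells and yolk sac cells, where 1 of 20 was higher.

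Each probe set was also fitted on its own. A gene of the chain had from 1 to 6 probe sets, and 33 genes had 1. Among all 34945 named probe sets, 0 of the 158 were called in any comparison (limma), where 4.15% of all were called between heart tube cells and caudal cells, 9.78% between heart tube cells and yolk sac cells and 6.92% between caudal cells and yolk sac cells. Ndufa8 and Ndufv3 then had adjusted p of 0.0532 and 0.0600 against yolk sac cells (limma), just outside the threshold.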

How the data were processed

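Total RNA of 6 sorted samples (3 tissues, 2 arrays each) was hybridised to Affymetrix mouse arrays. The submitters' processing notes name RMA and affy as the authors' tools for the deposited signal, without versions. These values ran from 2.46 to 2172540, too high for linear array values, so their natural log (0.899 to 14.6) was read as RMA log2.

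Of 45101 probe sets, 34945 had a single symbol and were not controls, 932 had several and 9211 none; 9 probe sets with several symbols that fit the rule were not used. The brightest probe set stood for each gene. Tissue means were fitted with limma 3.58.1 (lmFit and eBayes, R 4.3.3) over all 6 arrays and 18193 genes, with 3 residual and 3.48 prior degrees of freedom, and called at a Benjamini-Hochberg adjusted p under 0.05. The number of arrays limits the precision (median SE of a difference 0.210). The fit was tested on simulated data.

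The members, lists and tests were chosen with earlier results of these data known. Text names every called member, tissue isoforms, Sdh genes, the extremes of each complex, up to 4 called genes per list and comparison, and 9 genes fixed by name (Pecam1, Ptprc, Itga2b, Ckmt2, Slc25a4, Ppargc1a, Esrrg, Cycs, Cyc1); Nrf1 and ND5 were added. Alternatives were another log base, centring, quantile normalization, the mean of probe sets, a filter on dim genes, a trend in the prior variance, a replicate block, each array left out, and, added later, no x_at or s_at probe sets and each probe set singly.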

Additional observations from a re-analysis of the deposited data

How the results depend on the processing

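The 2 called differences of the chain, those of Ndufa8 and Ndufv3 between heart tube cells and yolk sac cells, did not reverse under any alternative. The median difference of the 79 genes between heart tube cells and yolk sac cells was -0.12, -0.17 with log2 of the deposited signal, and -0.17 to -0.10 with 1 array left out; between caudal cells and yolk sac cells it was -0.1105 to 0.0026 with 1 array left out. The number of genes lower in heart tube cells than in yolk sac cells was 5 with a trend in the prior variance (Cox4i1, Ndufa3, Ndufa8, Ndufv3 and Sdhc) and 0 to 0 with 1 array left out. Between heart tube cells and caudal cells 1 gene, Ndufa8, was lower with the mean of all probe sets, without dim genes and with the trend. Between caudal cells and yolk sac cells 1 gene, Cox7c, was higher with quantile normalization, the mean of all probe sets and without dim genes, and 6 were lower with the trend (Atp5e, Atp5j2, Ndufa1, Ndufa5, Ndufv3, Sdhc). The cause was not tested. Over all genes, calls between heart tube cells and caudal cells numbered 520 higher and 482 lower, 692 and 686 with the trend, and 208 to 493 and 168 to 406 with 1 array left out; 387 to 764 were higher and 549 to 1030 lower in heart tube cells than in yolk sac cells with 1 array left out, against 936 and 1214, and 222 to 475 higher and 416 to 680 lower in caudal cells than in yolk sac cells, against 767 and 885, where the trend gave 1229 higher. Fits with 1 array of a tissue assume that it varies like the others.

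The labels number the replicates 1 and 2 in each tissue, with no statement that a number marks a shared litter or day. Deviations of same-numbered arrays from their tissue means correlated over genes at r = 0.047, -0.0068 and 0.019, so the numbers were not taken to pair the samples. With the replicate block, 0 of the 79 genes were lower in heart tube cells than in yolk sac cells.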
